A study of Homo sapiens with 8 samples.

Results

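The genes examined here encode SR proteins, hnRNPs and a small set of core splicing factors, in HEK293T cells treated with DZNep (3-deazaneplanocin A). A gene was a member when it was protein-coding, stood in the deposited table of normalized counts, and had a GENCODE symbol of the form SRSF, HNRNP, SF3A, SF3B, U2AF, TRA2 or RBFOX followed by its family letters or number. The rule gave 50 members of 19118 genes in that table. There were 12 SR proteins (SRSF1 to SRSF12), 23 hnRNPs, 9 subunits of SF3a and SF3b, and 2 genes each of the U2AF, TRA2 and RBFOX families. A further 4 protein-coding genes fitted the symbols but were not in the normalized table. HNRNPCL2, HNRNPCL3 and HNRNPCL4 had 41, 28 and 8 counts over all libraries, and RBFOX1 had 0 counts in each of the 8 libraries, where 3 counts would be between 6.68e-06% and 1.2e-05% of a library (counting error only).

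HEK293T is a line of human embryonic kidney origin that expresses the large T antigen of SV40. DZNep is an adenosine analog that inhibits S-adenosylhomocysteine hydrolase, so that S-adenosylhomocysteine accumulates and many methyltransferases are slowed. The 4 DZNep libraries came from cells given 100 µM for 48 h, and the 4 Control libraries from cells given vehicle for 48 h; the study describes them as biological replicates of 1 cell line, numbered 1 to 4 in both groups. The study asked how the drug alters transcripts, protein levels and protein thermal stability, and only the RNA counts are described here. The libraries held 25043058 to 41247898 counts in Control and 36141132 to 44902779 in DZNep. The members took 1.91% to 2.14% of all counts. Mitochondrial genes took 7.76%, 3.02%, 3.16% and 13.7% of the counts in Control 1 to 4 and 7.04%, 4.25%, 4.44% and 10.1% in DZNep 1 to 4, so replicates 1 and 4 had the higher share in both groups. Of the markers of the line, PAX2, VIM, CDH2, KRT18 and NEFM were detected in each library, with PAX2 the lowest at 207 to 385 normalized counts. Of the markers of other cell types, ALB was at 0 to 6.91, APOA1 at 0 to 19.1, PTPRC at 36.7 to 77.7, DCN at 70.1 to 220 and COL1A1 at 2248 to 4682. The T cell gene CD3E was at 0 in the Control libraries and at 8.16 to 40.5 in the DZNep libraries; the part of such transcripts in the results was not tested.

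Pre-mRNA splicing is steered by proteins that bind exons and introns next to the splice sites. SR proteins carry RNA recognition motifs and a domain rich in arginine and serine, which kinases of the SRPK and CLK families phosphorylate, and they mostly favour inclusion of the exons they bind. The hnRNPs coat nascent transcripts, and many of them counter the use of nearby splice sites. SF3a and SF3b are parts of the U2 small nuclear ribonucleoprotein, which pairs with the branch site, and U2AF2 and U2AF1 bind the polypyrimidine tract and the AG of the 3′ splice site. Many genes of these families limit their own output by splicing in an exon with an early stop codon, so that the transcript is removed by nonsense-mediated decay (NMD).

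In GENCODE release 44, 34 of the 50 members (68.0%) had a transcript of the NMD class, against 45.3% of the 14709 protein-coding genes of the normalized table, and all 12 SR genes had one. Of the members, 14 had at least 1 internal exon of such a transcript that overlapped no exon of a coding transcript, and 6 of these members were SR genes. Both neighbouring exons had to share the splice site facing it with an exon of a coding transcript. Transcripts of other classes were not checked. Exons of this kind are shown for the 6 of these members that passed the test described below, because such exons are a known way for splicing factor genes to limit their own product. They are read from GRCh38 on the strand of the gene, 5′ to 3′, with the annotated stop codon in capitals. In that annotation each lies in a transcript of the NMD class and in no coding transcript; SRSF7 has others that are not shown.
SRSF6, chr20:43459153-43459420, plus strand: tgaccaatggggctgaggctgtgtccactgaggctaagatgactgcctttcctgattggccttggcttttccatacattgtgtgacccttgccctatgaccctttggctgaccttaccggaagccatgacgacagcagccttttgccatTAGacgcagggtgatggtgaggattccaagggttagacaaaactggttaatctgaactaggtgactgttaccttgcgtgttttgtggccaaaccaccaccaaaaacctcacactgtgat
SRSF7, chr2:38748898-38749173, minus strand: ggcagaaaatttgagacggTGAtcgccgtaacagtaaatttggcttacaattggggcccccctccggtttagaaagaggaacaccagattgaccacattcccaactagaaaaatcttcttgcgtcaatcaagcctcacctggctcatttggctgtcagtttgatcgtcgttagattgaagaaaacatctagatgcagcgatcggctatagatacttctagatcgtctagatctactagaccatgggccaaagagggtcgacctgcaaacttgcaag
SRSF11, chr1:70231095-70231203, plus strand: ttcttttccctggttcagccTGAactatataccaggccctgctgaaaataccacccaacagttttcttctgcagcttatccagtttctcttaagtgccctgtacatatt
SRSF11, chr1:70231859-70231975, plus strand: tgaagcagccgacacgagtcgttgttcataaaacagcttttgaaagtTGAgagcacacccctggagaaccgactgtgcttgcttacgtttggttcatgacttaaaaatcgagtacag
TRA2B, chr3:185931577-185931852, minus strand: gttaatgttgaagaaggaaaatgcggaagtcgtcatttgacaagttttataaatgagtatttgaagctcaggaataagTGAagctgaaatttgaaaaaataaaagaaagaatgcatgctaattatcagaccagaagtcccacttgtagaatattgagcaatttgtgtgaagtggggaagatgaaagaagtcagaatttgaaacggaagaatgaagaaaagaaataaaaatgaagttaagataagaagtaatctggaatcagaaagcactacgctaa
U2AF2, chr19:55658862-55658981, plus strand: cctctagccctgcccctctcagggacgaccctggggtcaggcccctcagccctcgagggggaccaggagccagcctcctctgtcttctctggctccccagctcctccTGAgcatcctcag
HNRNPL, chr19:38841613-38841682, minus strand: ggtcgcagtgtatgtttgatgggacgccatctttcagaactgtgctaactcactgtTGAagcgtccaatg

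The stop codon began 20 bases into the SRSF7 exon, 79 into that of TRA2B and 150 into that of SRSF6, and the exon of U2AF2 had the highest G and C content of the 7 at 68.3%, against 32.6% in TRA2B. The deposited counts are sums over all exons of a gene. Reads from these exons and from the coding transcripts are therefore added together, and a fall or rise of a gene below does not say which transcript changed.

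Per length and by the median of their genes, the hnRNPs were the most abundant of the 3 larger families. Levels between genes are given as TPM, the field's usual unit of transcript share, computed from the counts and the summed exon length of each gene. That length merges the exons of all annotated transcripts, and the order between genes depends on it. It was 2118 bases for HNRNPAB and 12613 for HNRNPA2B1, which were at 27130 ± 8586 and 71880 ± 18510 normalized counts in Control. The Control mean of HNRNPA1, a shuttling protein that binds UAG-containing sites, was the highest of all members at 1452 ± 134 TPM (SD, n = 4), and its 4 Control libraries (1299 to 1623) lay above those of HNRNPAB (1002 to 1092), the next. HNRNPK, which binds C-rich RNA, followed at 676 ± 202 TPM and HNRNPC, which binds U tracts, at 619 ± 57.8 TPM. Their Control libraries overlapped, as did those of 43 of the 49 neighbouring pairs in the order. The TPM total includes the mitochondrial genes, whose share of counts ran from 3.02% to 13.7% in Control, so the TPM spread between libraries includes that difference. HNRNPK was at 443 to 879 TPM in Control, but at 43950 ± 2185 normalized counts. The median over genes of the Control means was 217 TPM for the hnRNPs, 179 TPM for the SF3 subunits and 124 TPM for the SR proteins. Among the SR genes SRSF3 was the highest at 281 ± 86.6 TPM and SRSF12 the lowest at 13.8 ± 3.08 TPM. At the low end stood RBFOX3 (5.60 ± 2.01 TPM), U2AF1 (1.49 ± 0.629 TPM) and HNRNPCL1 (0.94 ± 0.303 TPM). HNRNPA1 was still first in DZNep, at 975 ± 32.6 TPM, but its DZNep libraries (942 to 1020) now overlapped those of HNRNPAB (839 to 1051).

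Some of these levels are uncertain, and may be too low, because the genes have near copies and only uniquely mapped reads were counted. The share of 150-base windows of a gene's coding transcripts that also occur in a transcript of a gene elsewhere was 42.3% for U2AF1, 29.0% for HNRNPCL1, 21.2% for HNRNPA1L3, 18.2% for HNRNPA1L2, 8.53% for HNRNPA1, 6.26% for HNRNPA3, 5.54% for HNRNPH1 and 2.08% for HNRNPL. It was under 1% for the other members. The windows of U2AF1 were shared with a second copy on chromosome 21, ENSG00000275895, which had 152 ± 129 normalized counts in Control and 101 ± 37.7 in DZNep.

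After DZNep, 6 of the 50 members rose and 7 fell, and 37 did not pass the test. The hnRNPs HNRNPH3, HNRNPL, HNRNPH2 and HNRNPF rose together with U2AF2 and TRA2B, while HNRNPA3, HNRNPA1, SRSF6, SRSF7, SRSF11, SF3B5 and RBFOX3 fell. A gene is said to rise or fall when its Benjamini-Hochberg adjusted p, over all 19171 genes tested by the quasi-likelihood method of edgeR, was under 0.05; all 50 members passed the filter on low counts. The 6 that rose are 12% of the members, against 19.1% of all genes tested, and the 7 that fell are 14%, against 21.8%. The median log2 fold change was -0.06 over the members and -0.03 over all genes tested. Most of the changes were small. With the study's added requirement of a log2 fold change over 1 in size, 0 members were higher, against 10.6% of all genes, and 2 (RBFOX3 and SRSF11) were lower, against 13.5%. In 8 members every DZNep library lay above every Control library, against 19.5% of all genes, and in 5 members every DZNep library lay below, against 19.4%. RNA extracted from a whole culture was sequenced, so fewer cells of a kind and less RNA per cell cannot be told apart.

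**Figure D1:**
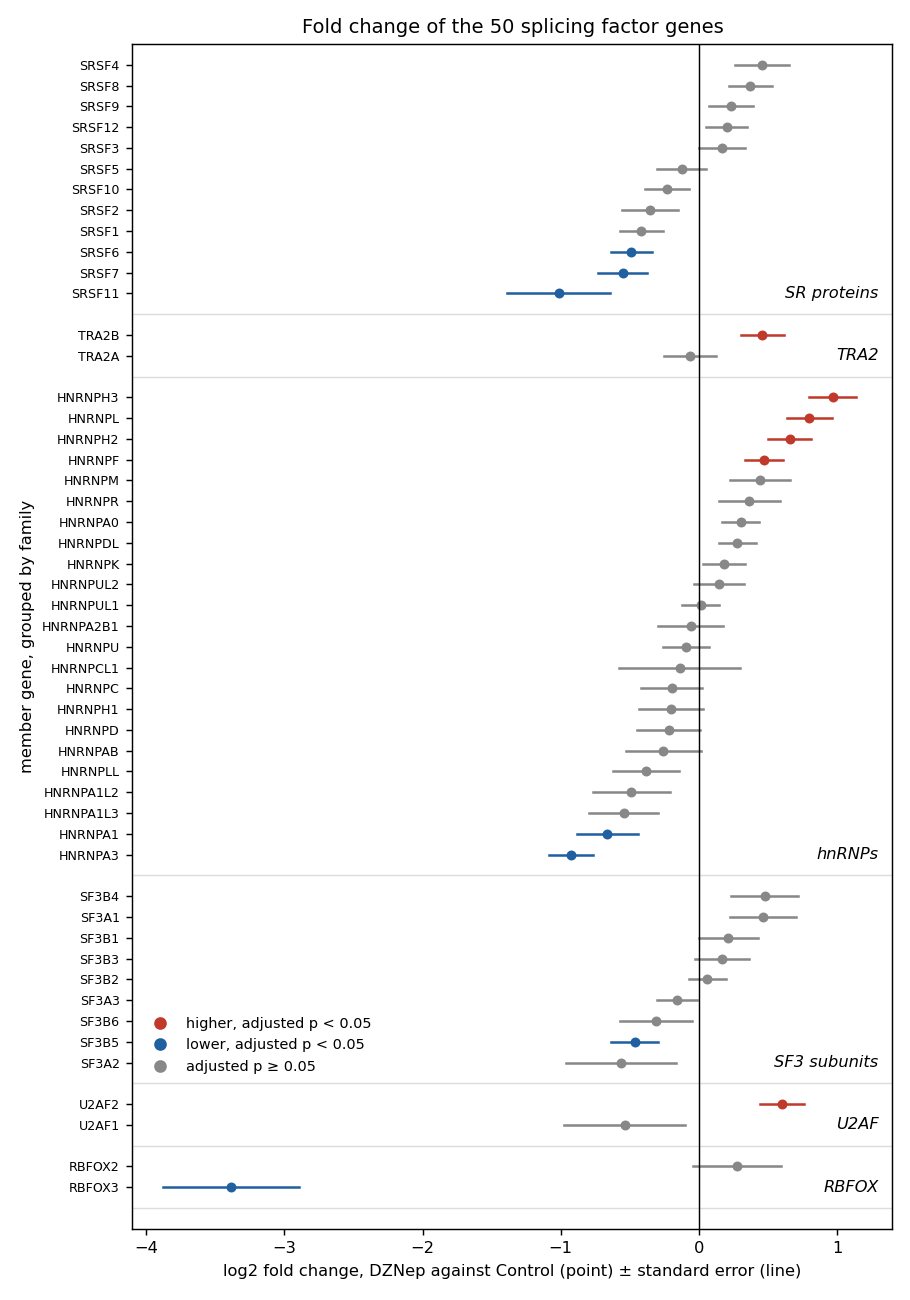
Log2 fold change of each of the 50 members, DZNep against Control, with its standard error from edgeR (n = 4 libraries a group), grouped by family. Red marks the 6 genes that rose, blue the 7 that fell and grey the 37 that did not pass; RBFOX3, at -3.39, stands far to the left of the others, which lie between -1.02 and 0.97.

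Libraries of the same replicate number deviated together from their group means, but so did some libraries of different numbers (values are given with the processing). Pairing by number is therefore an assumption of the blocked fit. In a fit with the number as a block, 15 members were higher and 14 lower at the same threshold, against 28.8% and 30.2% of all genes tested. The ratio of the DZNep to the Control library of the same number was above 1 in 4 of 4 numbers for 19 members, below 1 in 4 of 4 for 13, and mixed for 18. The share of all genes with 1 direction in the 4 numbers was not computed, so these counts are not read as particular to the members. The 13 members that passed the unblocked test all had 1 direction in the 4 numbers. Both come from the same libraries, so this is not separate support for the calls. The spread had a shape of its own. In 17 members (34.0%) replicates 1 and 4 lay on the same side of replicates 2 and 3 in both groups, against 39.8% of all genes of the table. They lay above in 13 of these members and below in 4. Of all 19118 genes they lay above in 3718 and below in 3898. The mitochondrial share of the libraries also separated these numbers, and its part was not tested.

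Of the 12 SR genes, none rose and 3 fell (25%, against 21.8% of all genes tested). In the blocked fit 2 were higher (SRSF4 and SRSF8) and 5 lower, SRSF1 and SRSF2 in addition to the 3, where 28.8% and 30.2% of all genes were called. The family's median log2 fold change was -0.18. SRSF6 (ENSG00000124193, chr20:43457893-43466046, plus strand), a regulator of alternative exons, was at 7102, 9453, 9233 and 7318 normalized counts in Control 1 to 4 and at 5526, 6500, 5763 and 6264 in DZNep 1 to 4. The groups did not overlap, and the gene fell by 0.49 on the log2 scale (SE 0.15, edgeR adjusted p = 0.0255). SRSF7 (ENSG00000115875, chr2:38743599-38751494, minus strand), which also helps to export mRNA from the nucleus, was at 7634, 8285, 7655 and 10530 in Control and at 5624, 6347, 4718 and 7024 in DZNep. Each DZNep library was again below each Control library, with a fall of 0.55 (SE 0.17, edgeR adjusted p = 0.0280). The SRSF6 call was lost without Control 2, Control 3, DZNep 1 or DZNep 3 and with library sizes alone, and the SRSF7 call without Control 4, DZNep 1, DZNep 2 or DZNep 3. Both were lost with no filter on low counts. The NMD exons printed above for these genes could not be counted apart.

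SRSF11 (ENSG00000116754, chr1:70205682-70253052, plus strand), an SR protein that is found with U2AF at the 3′ splice site, had the largest fall of the family and the widest spread. It was at 11420, 5702, 6339 and 18690 normalized counts in Control 1 to 4 and at 4766, 4288, 4551 and 7683 in DZNep 1 to 4. DZNep 4 lay above Control 2 and Control 3, so the groups overlapped, and Control 1 and 4 were far above the other 2 controls. The fall of 1.02 (SE 0.37, edgeR adjusted p = 0.0493) was just past the threshold, and it was lost without Control 1, Control 4, DZNep 1, DZNep 2 or DZNep 3, with median-ratio size factors, by limma, and with at least 10 counts required in every library. Within numbers 1 to 4 the log2 ratio was -1.26, -0.41, -0.48 and -1.28, so the gene was lower in each number, and more so in the numbers with the high mitochondrial share. The blocked fit gave -0.89 (edgeR adjusted p = 1.7e-04).

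SRSF1 (ENSG00000136450), the founding member of the family, was at 14540, 14550, 16150 and 17320 normalized counts in Control and at 11470, 13540, 9699 and 13130 in DZNep. The groups did not overlap, but the log2 fold change of -0.42 did not pass (SE 0.16, edgeR adjusted p = 0.0587). It passed in the blocked fit (edgeR adjusted p = 0.00882) and in DESeq2 (adjusted p = 0.0453). The 4 SR genes with the highest log2 fold changes were SRSF4, SRSF8, SRSF9 and SRSF12, and none of them passed the unblocked edgeR test. SRSF4, one of the largest SR proteins, was at 5522, 4020, 5336 and 6950 in Control and at 6399, 8039, 6809 and 9322 in DZNep, a log2 fold change of 0.46 (SE 0.20, edgeR adjusted p = 0.0883, 0.00714 with the block). SRSF8, a relative of SRSF2 that arose by retroposition, was at 2619, 2199, 2204 and 3174 and at 3321, 3546, 3001 and 3583, a change of 0.37 (SE 0.16, edgeR adjusted p = 0.0850, 0.0112 with the block, 0.0400 in DESeq2). The groups overlapped in both genes because Control 4 lay above at least 1 DZNep library. SRSF9 was at 9903, 8570, 8491 and 9180 in Control and at 10670, 9629, 9373 and 13640 in DZNep (log2 fold change 0.23, SE 0.16). Of its exon bases 43.6% overlap GATC on the other strand, and GATC itself rose by 0.56 (SE 0.19, edgeR adjusted p = 0.0337). The strand setting of the counting is not given in the sources used here, so reads from that overlap cannot be told apart. SRSF12, the least abundant SR gene, was at 786, 654, 705 and 755 and at 818, 906, 975 and 695 (log2 fold change 0.20, SE 0.15), with DZNep 4 inside the Control range. The remaining SR genes, SRSF2, SRSF3, SRSF5 and SRSF10, had log2 fold changes of -0.36, 0.16, -0.12 and -0.23, with groups that overlapped in each.

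TRA2B and TRA2A are close relatives that bind GA-rich exonic enhancers. TRA2B (ENSG00000136527, chr3:185914558-185938103, minus strand) was at 6120, 8430, 8012 and 7484 normalized counts in Control 1 to 4 and at 10110, 11340, 9068 and 11580 in DZNep 1 to 4. Every DZNep library was above every Control library, and the gene rose by 0.46 (SE 0.16, edgeR adjusted p = 0.0383). That call was lost when any 1 of Control 1, Control 3, Control 4, DZNep 1, DZNep 2 or DZNep 4 was left out, when replicate 4 of both groups was, and with no filter on low counts. TRA2A was at 4930, 4415, 3655 and 5894 and at 4601, 4430, 3718 and 5709. Its within-number log2 ratios ran from -0.10 to 0.02, with a log2 fold change of -0.06 and a 95% interval from -0.48 to 0.36.

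**Figure D2:**
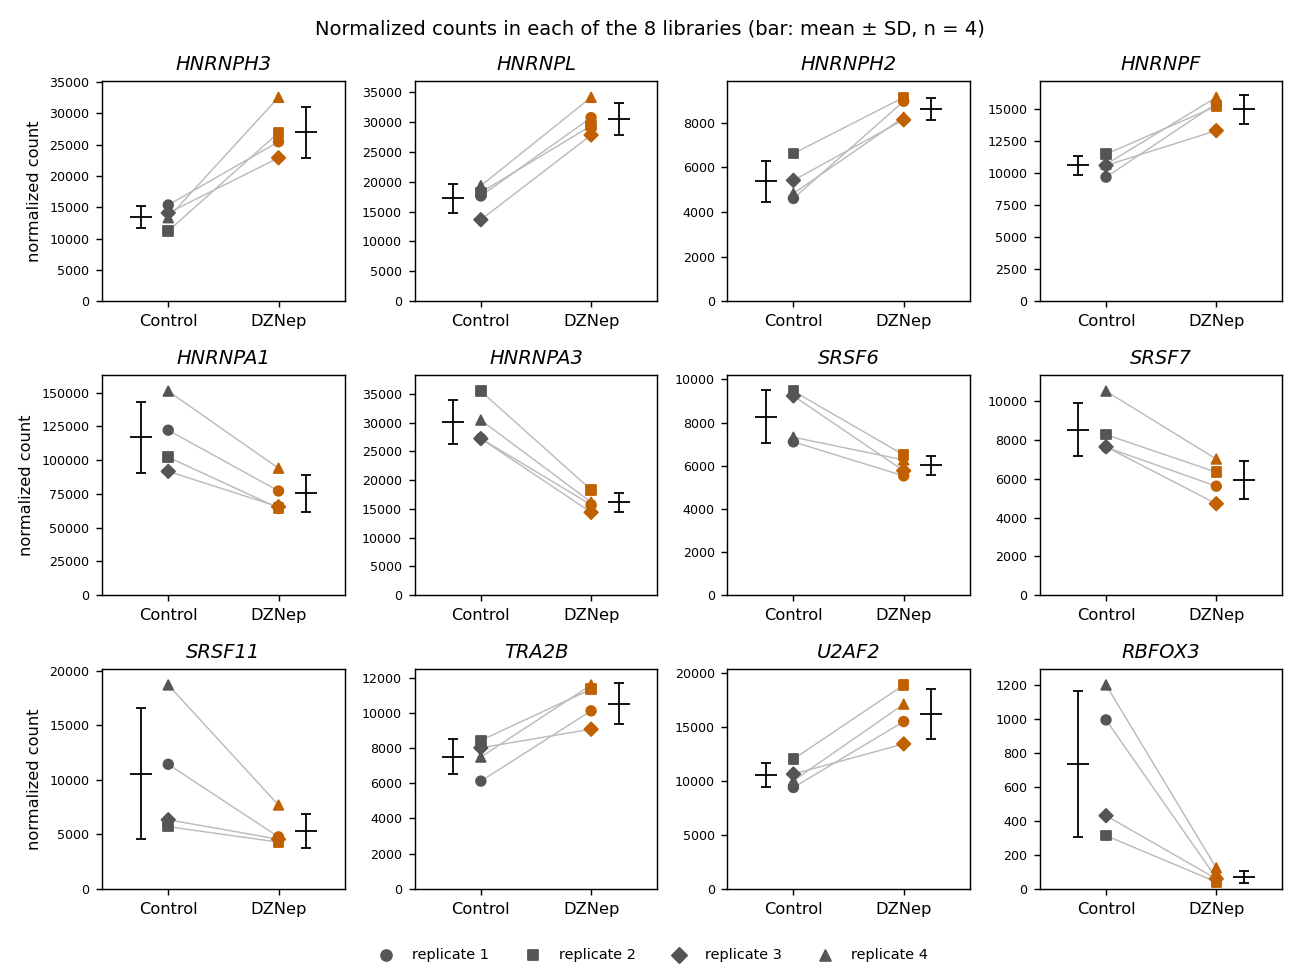
Normalized counts of 12 members in the 4 Control and 4 DZNep libraries, on linear axes from 0, with lines joining the libraries of the same replicate number and bars for mean ± SD (n = 4). The groups are apart in 10 panels, and they overlap in HNRNPA1 (DZNep 4, 93930, above Control 3, 91620) and in SRSF11.

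Of the 23 hnRNP genes, 4 rose (17.4%, against 19.1% of all genes tested) and 2 fell (8.70%, against 21.8%). The blocked fit gave 8 and 5, where 28.8% and 30.2% of all genes were called, and the family's median was -0.06. The genes that rose were 3 of the 4 members of the H and F group, whose proteins bind runs of G, and HNRNPL, which binds CA repeats. HNRNPH3 (ENSG00000096746, chr10:68331174-68343193, plus strand) was at 15370, 11230, 14100 and 13340 normalized counts in Control 1 to 4 and at 25460, 26890, 22900 and 32550 in DZNep 1 to 4. The lowest DZNep library was well above the highest Control library. The gene rose 1.96-fold, by 0.97 on the log2 scale (SE 0.17, edgeR adjusted p = 0.00140). HNRNPL (ENSG00000104824, chr19:38836370-38852347, minus strand) was at 17610, 18200, 13640 and 19320 and at 30710, 29360, 27800 and 34100. Its groups were also far apart, and it rose 1.74-fold (log2 0.80, SE 0.16, edgeR adjusted p = 0.00333).

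HNRNPH2 (ENSG00000126945, chrX:101408222-101414133, plus strand) was at 4602, 6611, 5411 and 4822 in Control and at 8950, 9126, 8122 and 8236 in DZNep. The gene rose 1.58-fold (log2 0.66, SE 0.15, edgeR adjusted p = 0.00676), and Control 2, the highest control, was still below each DZNep library. HNRNPF (ENSG00000169813, chr10:43385617-43409186, minus strand) was at 9661, 11450, 10570 and 10660 and at 15380, 15180, 13280 and 15870, a rise of 1.38-fold (log2 0.47, SE 0.14, edgeR adjusted p = 0.0206). Its groups were apart too, but the call was lost without Control 1, Control 3 or DZNep 1, with replicate 4 of both groups left out and with no filter on low counts. HNRNPH1, the fourth member of the group, was at 14910, 20670, 22390 and 13440 and at 14430, 22200, 13550 and 13090. DZNep 2 stood far above the other 3 DZNep libraries, the groups overlapped, and the log2 fold change was -0.20 (95% interval -0.72 to 0.32).

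The hnRNPs that fell belong to the A group, abundant proteins with a pair of RNA recognition motifs and a glycine-rich tail. HNRNPA3 (ENSG00000170144, chr2:177212694-177223959, plus strand) was at 27260, 35490, 27230 and 30450 normalized counts in Control 1 to 4 and at 15720, 18320, 14400 and 16170 in DZNep 1 to 4. All DZNep libraries were far below all Control libraries, and the gene fell by 0.93 (SE 0.16, edgeR adjusted p = 0.00124). Of its exon bases 53.6% overlap NFE2L2 on the other strand, which was at 2059 ± 525 normalized counts in Control and 2122 ± 243 in DZNep (log2 fold change 0.02). HNRNPA1 (ENSG00000135486, chr12:54280193-54287088, plus strand) was at 122100, 102100, 91620 and 151000 and at 77090, 64490, 65400 and 93930. Its groups overlapped in 1 library each, while the within-number log2 ratios were alike at -0.66, -0.66, -0.49 and -0.69. The fall was 0.66 (SE 0.22, edgeR adjusted p = 0.0348, 1.8e-04 with the block), and without the block it was lost when Control 1, Control 4, DZNep 1, DZNep 2 or DZNep 3 was left out or at least 10 counts were required in every library.

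HNRNPA1L3 and HNRNPA1L2, genes similar in sequence to HNRNPA1, had the next lowest log2 fold changes and did not pass. HNRNPA1L3 was at 732, 479, 463 and 903 in Control and at 391.8, 561, 346 and 503 in DZNep (log2 fold change -0.54, SE 0.25, edgeR adjusted p = 0.108). HNRNPA1L2 was at 393, 243, 254 and 543 and at 230, 250, 214 and 348 (log2 fold change -0.49, SE 0.28, edgeR adjusted p = 0.189). The groups overlapped in both, and both passed as lower in the blocked fit (edgeR adjusted p = 0.0183 and 0.0326). Only uniquely mapped reads were counted, so reads from sequence that these genes share with HNRNPA1 may be missing from the counts of each. Of the 5 HNRNPA1 pseudogenes tested 3 did not pass, HNRNPA1P10 fell by 0.85 (181 ± 43.8 to 102 ± 12.1 normalized counts, edgeR adjusted p = 0.0104) and HNRNPA1P16 by 2.19 (66.5 ± 31.5 to 15.1 ± 12.6, edgeR adjusted p = 0.00914). HNRNPA2B1, the other major A-group gene, was at 71880 ± 18510 in Control and 70300 ± 13930 in DZNep (log2 fold change -0.06, 95% interval -0.58 to 0.46).

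HNRNPA0 and HNRNPDL had groups that did not overlap but did not pass in edgeR without the block, while DESeq2 called both (adjusted p = 0.0121 and 0.0382). HNRNPA0 was at 12200, 12020, 12810 and 13610 in Control and at 14970, 17180, 15810 and 15650 in DZNep (log2 fold change 0.30, SE 0.13, edgeR adjusted p = 0.100, 0.0331 with the block). HNRNPDL, a relative of the AU-rich element binder HNRNPD, was at 10190, 11470, 10450 and 10790 and at 12870, 13470, 12060 and 14550 (log2 fold change 0.28, SE 0.13, edgeR adjusted p = 0.128, 0.0458 with the block). HNRNPM (0.44, edgeR adjusted p = 0.130) and HNRNPR (0.36, edgeR adjusted p = 0.219) passed only with the block (0.00410 and 0.0130) or without Control 2, and HNRNPLL (-0.38, edgeR adjusted p = 0.232) only with the block (0.0293). HNRNPU, HNRNPUL1, HNRNPUL2, HNRNPK, HNRNPC, HNRNPD, HNRNPAB and HNRNPCL1 lay between -0.26 and 0.18 and passed in neither fit. HNRNPUL1 had the narrowest interval about 0 among them, -0.28 to 0.31.

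The counts of 22 pairs of related members were also set against each other within each library. A ratio within a library does not depend on how the libraries are scaled. The pairs were chosen after the values of the members had been seen, so the ratios are a description. None of the 22 passed an exact two-sided permutation test over the 8 libraries after adjustment over the pairs (lowest adjusted p = 0.0571), a test that does not use the replicate numbers. In 11 pairs the ratios of the groups did not overlap, and each of these had the smallest p that the exact permutation test allows, 0.0286. The lack of a pass thus reflects the resolution of the test, and nothing is concluded from it. Within the replicate numbers the ratio moved in 1 direction in 4 of 4 for 18 pairs, 7 of them with groups that overlapped. The log2 ratio of HNRNPH1 to HNRNPH3 went from 0.38 ± 0.47 (SD, n = 4) to -0.79 ± 0.42, and that of HNRNPL to HNRNPLL from 3.28 ± 0.63 to 4.44 ± 0.41. For HNRNPA1 to HNRNPA2B1 it went from 0.71 ± 0.08 to 0.10 ± 0.15, and for SRSF3 to SRSF7 from 1.43 ± 0.17 to 2.16 ± 0.09. The ratio of SRSF4 to SRSF6 went from -0.62 ± 0.51 to 0.33 ± 0.17. For HNRNPD to HNRNPAB the ratios, -0.19 ± 0.11 and -0.15 ± 0.14, differed by less than their spread. TRA2A to TRA2B, at -0.68 ± 0.42 and -1.20 ± 0.15, overlapped between groups and moved by -0.82, -0.42, -0.15 and -0.68 within numbers 1 to 4.

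**Figure D3:**
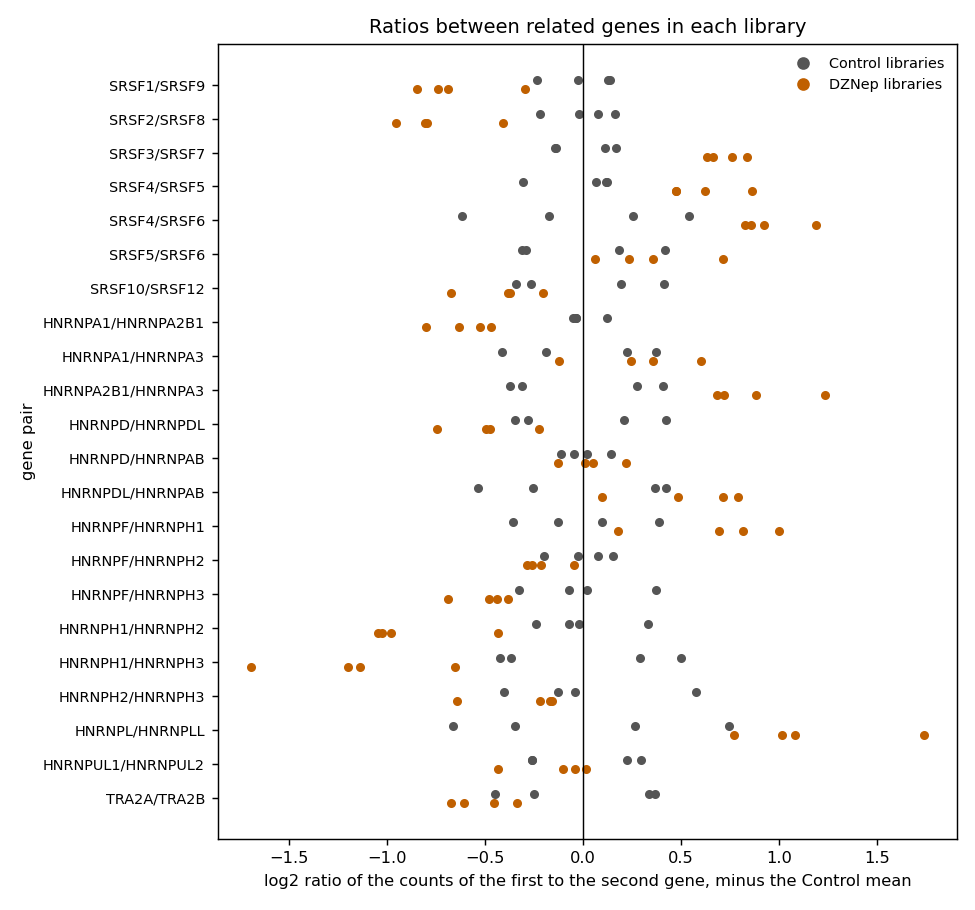
Log2 ratio of the counts of 2 related genes in each Control (grey) and DZNep (orange) library, less the mean of the Control libraries, for the 22 pairs. In 11 pairs, SRSF3 to SRSF7 and HNRNPA1 to HNRNPA2B1 among them, the orange points lie wholly to 1 side of the grey ones, and HNRNPH1 to HNRNPH3 has the largest shift at -1.17.

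Of the 9 SF3 genes, none rose and 1 fell (11.1%), where 19.1% of all genes tested rose and 21.8% fell. The blocked fit gave 2 and 3, where 28.8% and 30.2% of all genes were called. In none did the groups separate fully, against 19.5% of all genes with DZNep above and 19.4% with DZNep below. SF3B5 (ENSG00000169976, chr6:144094884-144095573, minus strand), a small subunit of SF3b, was at 2958, 3385, 3126 and 4059 normalized counts in Control 1 to 4 and at 2608, 2336, 2024 and 3027 in DZNep 1 to 4. Only DZNep 4 reached into the Control range. The fall of 0.47 (SE 0.17, edgeR adjusted p = 0.0476, 0.00283 with the block) was just past the threshold, and it was lost under 11 of 16 alternatives, among them median-ratio size factors, library sizes alone, limma, both other filters on low counts and leaving out Control 2, Control 3, Control 4, DZNep 1, DZNep 2 or DZNep 3. SF3A2, an SF3a subunit with a zinc finger, was at 13320, 4575, 6289 and 15720 and at 6754, 5169, 4802 and 10830 (log2 fold change -0.56, SE 0.40, edgeR adjusted p = 0.289, 0.0173 with the block). Replicates 1 and 4 were above the others in both groups, and DZNep 2 was above Control 2. SF3B6, which lies next to the branch adenosine, was at 8092, 4559, 5521 and 8645 and at 5665, 4327, 4304 and 7780 (log2 fold change -0.31, SE 0.26, edgeR adjusted p = 0.370, 0.0360 with the block). SF3A3 was at 6848, 9344, 7998 and 6981 and at 7315, 7393, 6696 and 7045 (log2 fold change -0.16, SE 0.15). Both overlapped widely.

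SF3B4, which contacts the intron upstream of the branch site, was at 5574, 3246, 3551 and 5843 in Control and at 6564, 5789, 4931 and 8531 in DZNep, a log2 fold change of 0.47 (SE 0.24, edgeR adjusted p = 0.144, 0.00256 with the block). SF3A1, the largest SF3a subunit, was at 6704, 12300, 10380 and 5861 and at 13090, 13890, 12300 and 10230, a change of 0.46 (SE 0.24, edgeR adjusted p = 0.151, 0.00543 with the block). Both were higher in DZNep in 4 of 4 numbers while their groups overlapped. SF3B1, the scaffold of SF3b that is often mutated in blood cancers, was at 11400, 19620, 14820 and 11560 and at 17010, 20210, 17240 and 13330 (log2 fold change 0.21, 95% interval -0.26 to 0.69). SF3B3 was at 10860, 17180, 15070 and 11070 and at 15750, 17770, 15850 and 12510 (log2 fold change 0.17, 95% interval -0.27 to 0.60). In both, Control 2 exceeded some DZNep libraries, and neither passed in either fit. SF3B2 had a log2 fold change of 0.06.

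The U2AF subunits differed in what could be measured. U2AF2 (ENSG00000063244, chr19:55654146-55674716, plus strand) was at 9394, 12020, 10640 and 10020 normalized counts in Control 1 to 4 and at 15500, 18890, 13430 and 17110 in DZNep 1 to 4. The groups were apart, and the gene rose 1.51-fold (log2 0.60, SE 0.16, edgeR adjusted p = 0.0128). U2AF1 was at 250, 98.2, 104 and 434 and at 165, 143, 126 and 188. Its groups overlapped, with a log2 fold change of -0.54 (95% interval -1.51 to 0.43). Of its 150-base windows 42.3% are shared with the second copy described above. Reads that map to both were not counted, so its level is uncertain and may be understated.

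RBFOX proteins bind GCAUG and regulate exons in neurons and muscle, and RBFOX3 is the neuronal antigen NeuN. RBFOX3 (ENSG00000167281, chr17:79089345-79611051, minus strand) had the largest change of the 50 members. It was at 994, 313, 431 and 1200 normalized counts in Control 1 to 4 and at 64.4, 41.1, 59.6 and 124 in DZNep 1 to 4. The highest DZNep library was below the lowest Control library, although the Control libraries themselves ranged widely, with 1 and 4 high. The gene fell by 3.39 on the log2 scale (SE 0.49, edgeR adjusted p = 4.5e-04), and the within-number log2 ratios were -3.94, -2.92, -2.84 and -3.27. RBFOX2 was at 4278, 8923, 6304 and 3421 and at 6703, 9547, 7771 and 4233. Its spread had the opposite shape, with replicates 2 and 3 high in both groups. The log2 fold change of 0.28 did not pass (SE 0.32, edgeR adjusted p = 0.525) but did with the block (edgeR adjusted p = 0.0374).

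Other genes of the splicing pathway, from lists of known factors, are given as counts and medians beside the members. The counts are to be read against the 19.1% of all genes tested that rose and the 21.8% that fell. Those with the block are to be read against 28.8% higher and 30.2% lower. Of 8 SR protein kinases (SRPK1 to SRPK3, CLK1 to CLK4 and PRPF4B), 1 rose and none fell, with a median log2 fold change of 0.10. The one that rose was SRPK3, a kinase known from muscle, which went from 37.8 ± 11.4 to 168 ± 6.23 normalized counts (log2 2.11, SE 0.24, edgeR adjusted p = 1.0e-04). Of 18 SR-related proteins tested, 4 rose and 3 fell (6 and 6 with the block, median 0.06), and 6 fell without Control 2. SREK1 fell by 1.33, SRRM1 by 1.26 and PNN by 0.58, while RNPS1 rose by 0.91, SCAF8 by 0.87 and SCAF4 by 0.60. SRRM4 was below the filter on low counts.

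Among 16 hnRNP-type proteins that do not carry the HNRNP symbol, 2 rose and 5 fell (2 and 8 with the block, median -0.32). The rises were 0 without Control 1, without DZNep 1 or with no filter on low counts, and 1 without any other single library. PCBP3 went from 129 ± 21.4 to 13.04 ± 2.57 normalized counts and fell by 3.33 (SE 0.26, edgeR adjusted p = 1.6e-05). PTBP2, the neuronal polypyrimidine tract binder, fell by 1.42 (1781 ± 157 to 680 ± 72.2, edgeR adjusted p = 5.7e-05), while its relative PTBP1 rose by 0.53 (22960 ± 2865 to 33700 ± 2742, edgeR adjusted p = 0.0222). TAF15 fell by 1.22 and PCBP1 rose by 0.42. Of 21 tissue-restricted splicing regulators tested, 4 rose and 4 fell (median -0.09), but 1 fell without Control 1, Control 4, DZNep 1 or DZNep 2. ESRP1, an epithelial splicing regulator, went from 4.28 ± 3.03 to 20.4 ± 2.22 normalized counts (log2 2.10), RBM24 rose by 1.51 and RBM47 by 1.32. CELF4 fell by 1.59, KHDRBS3 by 1.25 and ESRP2 by 1.04. CELF6 and ELAVL3 were below the filter.

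In the spliceosome core, 0 of 11 genes of the U1 snRNP and Sm ring rose and 2 fell (median -0.13), SNRPA by 1.31 and SNRPD1 by 0.61, of which 1 was left without Control 1, Control 4, DZNep 1, DZNep 2 or DZNep 3. Of 10 branch site and U2 factors outside SF3, PUF60 rose by 0.73 (4447 ± 342 to 7516 ± 627 normalized counts, edgeR adjusted p = 0.00188) and DDX46, a helicase that acts on the U2 snRNP, fell by 1.93 (9987 ± 3541 to 2674 ± 395, edgeR adjusted p = 2.8e-04). The median of that list was 0.10, and 2 fell with the block or without DZNep 4. Of 22 genes of the U4/U6.U5 tri-snRNP, 2 rose and 2 fell (8 and 3 with the block, median 0.09). Without Control 2, 5 rose, and 1 fell without Control 1, DZNep 1, DZNep 2 or DZNep 3. PRPF3 rose by 0.85 and LSM3 by 0.66, while LSM4 fell by 0.86 and LSM8 by 0.83. Of 10 NMD factors, which remove transcripts with the exons printed above, 3 rose and 1 fell (5 and 4 with the block, median 0.10). The fall was lost without DZNep 1, and 3 fell without Control 2. SMG8 rose by 1.11 and SMG5 by 0.95, and SMG1, the kinase of the pathway, fell by 1.03 (3263 ± 1229 to 1628 ± 435, edgeR adjusted p = 0.0162) with groups that overlapped.

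**Figure D4:**
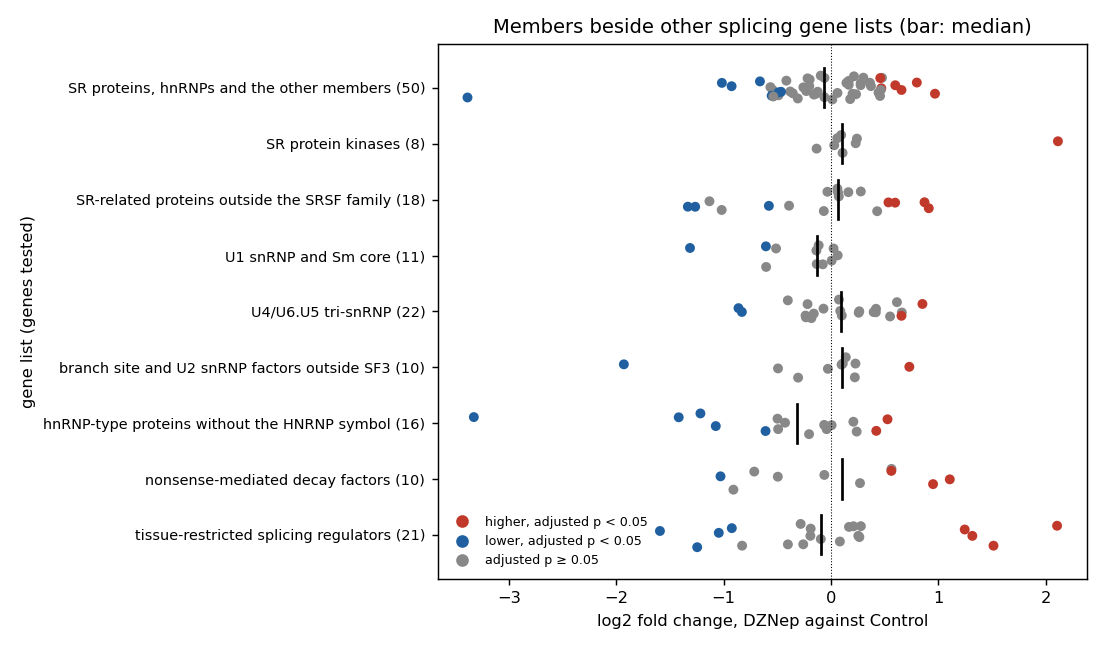
Log2 fold change of each tested gene in the 50 members and in 8 lists of other splicing or NMD genes, with the median of each as a bar. Red genes rose, blue genes fell and grey ones did not pass; the medians lie between -0.32 and 0.10, and the largest falls are RBFOX3 and PCBP3.

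The members that rose and fell were spread over genes with and without an annotated NMD exon. Of the 14 members with such an exon 3 rose and 3 fell, and of the 36 without one 3 rose and 4 fell. All 3 SR genes that fell were among the 6 SR genes that have one, and TRA2B, U2AF2 and HNRNPL were those that rose. No test was made of these counts, which stand beside 19.1% of all genes tested that rose and 21.8% that fell.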

How the data were processed

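RNAseq was measured in 8 HEK293T libraries, 4 Control and 4 DZNep, grouped by their titles. The submitters' processing notes name Trimmomatic 0.36, STAR 2.5.2b and featureCounts of Subread 1.5.2, and the authors counted unique exonic reads per gene on GRCh38. The first table the authors deposited holds raw counts for 57500 genes, and the second holds a signal, those counts divided by 1 size factor per library, for 19118 genes. The annotation release, library type and strand are not given in the sources used here, and the labels and the methods name different culture media. No comparison columns were used.

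Counts were tested with edgeR 4.0.16 (TMM, filterByExpr, quasi-likelihood test, Benjamini-Hochberg over 19171 genes) in R 4.3.3. Symbols and gene types came from GENCODE release 44 (56410 genes matched). Values in every library are given for the 4 highest and 4 lowest log2 fold changes of a family, and for some others chosen after their values were seen. From each other list, up to 3 genes in a direction were named by size of change. A marker and a gene of these lists are not reported here by name. The members and lists were chosen with earlier results of these data known. Alternatives were DESeq2 1.42.0, limma 3.58.1 on log2(normalized count + 1), other scalings and filters, glmTreat against 0.5, a replicate block and each library left out. Libraries of the same replicate number in the labels deviated together from their group means (r from 0.136 to 0.673 over genes, above 0.1 in each of the 4 numbers). Some libraries of different numbers did so too. For Control 1, r was 0.529 with DZNep 4 and 0.136 with DZNep 1. It was 0.398 for Control 2 with DZNep 3 and 0.343 for Control 3 with DZNep 2. These values do not show by themselves that cultures were paired by number. The block gives the fit that treats the numbers as pairs, while the reported calls come from the fit without it, as in the study. No libraries were duplicates (lowest chi-square per degree of freedom 26.9). The edgeR step was tested on simulated data, where it called few of the genes changed by 1 or less on the log2 scale. Far fewer genes were changed there than were called in the data, which makes the adjusted p stricter. The simulation therefore does not measure the power of the test reported here. A gene that did not pass still cannot be read as unchanged.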

Additional observations from a re-analysis of the deposited data

Results flagged for a closer look

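A library stood far from the other 3 of its group, by Dixon's criterion, in 5 of the 100 groups of 4 tested (50 members in each treatment), and chance alone flags about 1 group in 20. HNRNPH1 was at 22200 normalized counts in DZNep 2 against 13090 to 14430 in the other DZNep libraries. HNRNPM was at 25370 in Control 2 against 14560 to 15740 in the other controls, and the gene passed as higher when that library was left out. HNRNPUL1 was at 20240 in Control 1 against 21400 to 21530. SRSF11 was at 7683 in DZNep 4 against 4288 to 4766, and SRSF5 was at 7175 in DZNep 4 against 4727 to 4934.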

How the results depend on the processing

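The count of members that rose was 6, and 4 to 9 with 1 library left out; that of members that fell was 7, and 2 to 7. For the SR genes these ranges were 0 to 2 and 0 to 3, for the hnRNPs 3 to 6 and 1 to 2, and for the SF3 genes 0 to 1 in both directions. The lowest counts of falls, 2 members and 0 SR genes, came without DZNep 1 or DZNep 3, and the lowest count of rises, 4, without Control 1, Control 3 or DZNep 1. The calls over all genes moved too. In the main fit 3656 genes rose and 4171 fell. These counts were 2952 and 3225 without DZNep 1, and 3096 and 3491 without DZNep 3. They were 3191 and 3594 without Control 1, and 3290 and 3841 without Control 3. With the replicate block, 15 members were higher and 14 lower (SR 2 and 5, hnRNPs 8 and 5, SF3 2 and 3), against 28.8% and 30.2% of all genes. With glmTreat against 0.5, 1 was higher and 2 lower (hnRNPs 1 and 1, SR lower 0, SF3 lower 0). Of all 19171 genes, 2067 were higher and 2547 lower by that test. With a log2 fold change over 1 in size, 0 were higher and 2 lower (hnRNPs 0 and 0, SR lower 1, SF3 lower 0), against 10.6% and 13.5% of all genes. Without a filter on low counts 4 members fell (SR 1, SF3 0), and with at least 10 counts in every library 4 fell (hnRNPs 1, SF3 0). Over all genes, 4274 of 40246 tested and 3469 of 15870 tested fell under these 2 settings. By DESeq2, 9 members were higher and 8 lower, and 1 SR gene was higher. Over all genes DESeq2 called 4760 higher and 4701 lower of 28024 tested. With library sizes alone 2 SR genes and 1 SF3 gene were higher and 0 SF3 genes lower. That setting called 3822 higher and 3641 lower of all 19171 genes. SF3 falls were also 0 with median-ratio size factors and with limma, where 4028 of 19171 and 3892 of 19118 genes fell. With replicate 4 of both groups left out, an alternative chosen after seeing the data, 1 SR gene was higher. In that fit 3756 of 19236 genes were higher. The cause of these moves was not tested.

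Of the 13 members that passed, 6 (HNRNPH3, HNRNPL, HNRNPH2, HNRNPA3, U2AF2 and RBFOX3) passed under all 16 alternatives run per gene, and 7 lost the call under at least 1. Of the 37 others, 16 passed under at least 1. The alternatives run per gene leave out glmTreat against 0.5, under which 1 member was higher and 2 lower. They also leave out the threshold of 1 on the size of the log2 fold change. No such counts are given over all genes. No called member changed direction. Most changes were under 1 on the log2 scale, and 4 libraries a group limit what can be called at that size.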
